A study of Homo sapiens with 6 samples.

Results

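The 52 genes described here encode Wnt ligands, their cell surface receptors and the secreted or membrane proteins that hold the pathway back, together with AXIN2, a feedback inhibitor used widely as a readout of the pathway. They were chosen by name: the 19 WNT ligands, the 10 Frizzled receptors (FZD), the co-receptors LRP5, LRP6 and ROR2, the 7 R-spondins and LGR receptors, the 6 ligand-binding antagonists (the SFRP genes, FRZB and WIF1), the 4 DKK genes, SHISA2 and SHISA3, and AXIN2. They are 52 of the 18417 genes tested, and the choice was made with earlier results of these data known. They were measured in IMR90, a single line of human lung fibroblasts, after a single dose of 10 ng/mL recombinant human oncostatin M (3 arrays) and in untreated control cells (3 arrays). Oncostatin M is a cytokine of the interleukin-6 family, and the comparison asked which transcripts differ after it. How long the cells were treated is not stated in the labels. Nor do they say whether replicates came from separate cultures, so the p-values cover the spread of these 6 samples alone, which may be technical.

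Wnt proteins are secreted, lipid-modified signals that bind Frizzled receptors. With LRP5 or LRP6 as co-receptor, binding stabilises beta-catenin, which enters the nucleus and acts with TCF and LEF factors, while other ligands such as WNT5A can signal through the receptor tyrosine kinase ROR2 without beta-catenin. SFRP proteins and WIF1 bind the ligands, DKK1 blocks LRP5 and LRP6, and R-spondins, through LGR receptors, keep Frizzled receptors on the surface. In mouse lung development Wnt2 and Wnt5a are both made by the mesenchyme, the tissue that fibroblasts belong to.

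All levels are log2 expression levels of 1 probe set per gene, and each change is the oncostatin M mean minus the control mean (log2) with its standard error (SE) or 95% interval. The number of arrays limits the precision. A gene was called when its adjusted p was under 0.05 with limma, adjusted over all 18417 genes. The 6 arrays had medians of 6.54 to 6.66 and pairwise correlations of 0.989 to 0.997. SOCS3, a feedback inhibitor induced by cytokines of this family, was 4.16-fold higher in oncostatin M arrays. All 10 fibroblast markers stood in both groups above the 95th percentile of 409 olfactory receptor and keratin-associated protein genes, a set expected to be silent in fibroblasts (6.77 in oncostatin M and 6.74 in control arrays), as did none of 7 epithelial markers, 1 of 5 endothelial markers (TEK) and 1 of 4 leukocyte markers (CD68). Of the 10 fibroblast markers 2 were higher (LUM and PDGFRA) and 1 lower (PDGFRB), where 3.42% of all genes were called. Of 6 smooth muscle and pericyte markers 2 were lower (RGS5 and CSPG4) and none higher, and the other 4 had changes from -0.24 to 0.016. The mean log2 level of the 6 was between 7.66 and 7.77 in oncostatin M arrays, against 7.99 to 8.04 in control arrays. The part of such cells in the results below was not tested. Probe sets differ in how brightly they report a transcript, so this bound is only a guide and levels of different genes give no order of amounts. Oncostatin M 1 stood apart from its group by its array weight estimated by limma, 0.226 against 1.18 and 3.23 for the other oncostatin M arrays. It was the highest array of its group for 33 of 52 members (43.7% of all genes), and control 2 was so for 28 (43.6%). Without oncostatin M 1, the same 6 members were called.

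After oncostatin M the antagonist gene SHISA3, the ligand gene WNT2 and the receptor gene ROR2 were higher, and the antagonist gene DKK1 and the ligand genes WNT5B and WNT5A were lower. These 6 of 52 members (11.5%) passed the threshold, against 3.42% of all genes tested. In each direction 3 members passed, where 1.72% of all genes were higher and 1.7% lower. The members were chosen with earlier results of these data known, so these shares are no test of the set. The other 46 members did not pass. The median change over the 52 members was 0.019 and 30 lay above 0 (57.7%), against a median of 0.00057 and 50.2% over all genes. The 409 genes expected to be silent had a similar median of 0.026, with 58.4% above 0. The groups did not overlap for 15 members, against 18% of all genes, and 9 of these changed by at least 0.3, against 6.01% of all genes. In RNA from whole cultures, a change in the number of cells that express a gene and a change in RNA per cell cannot be told apart.

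**Figure D1:**
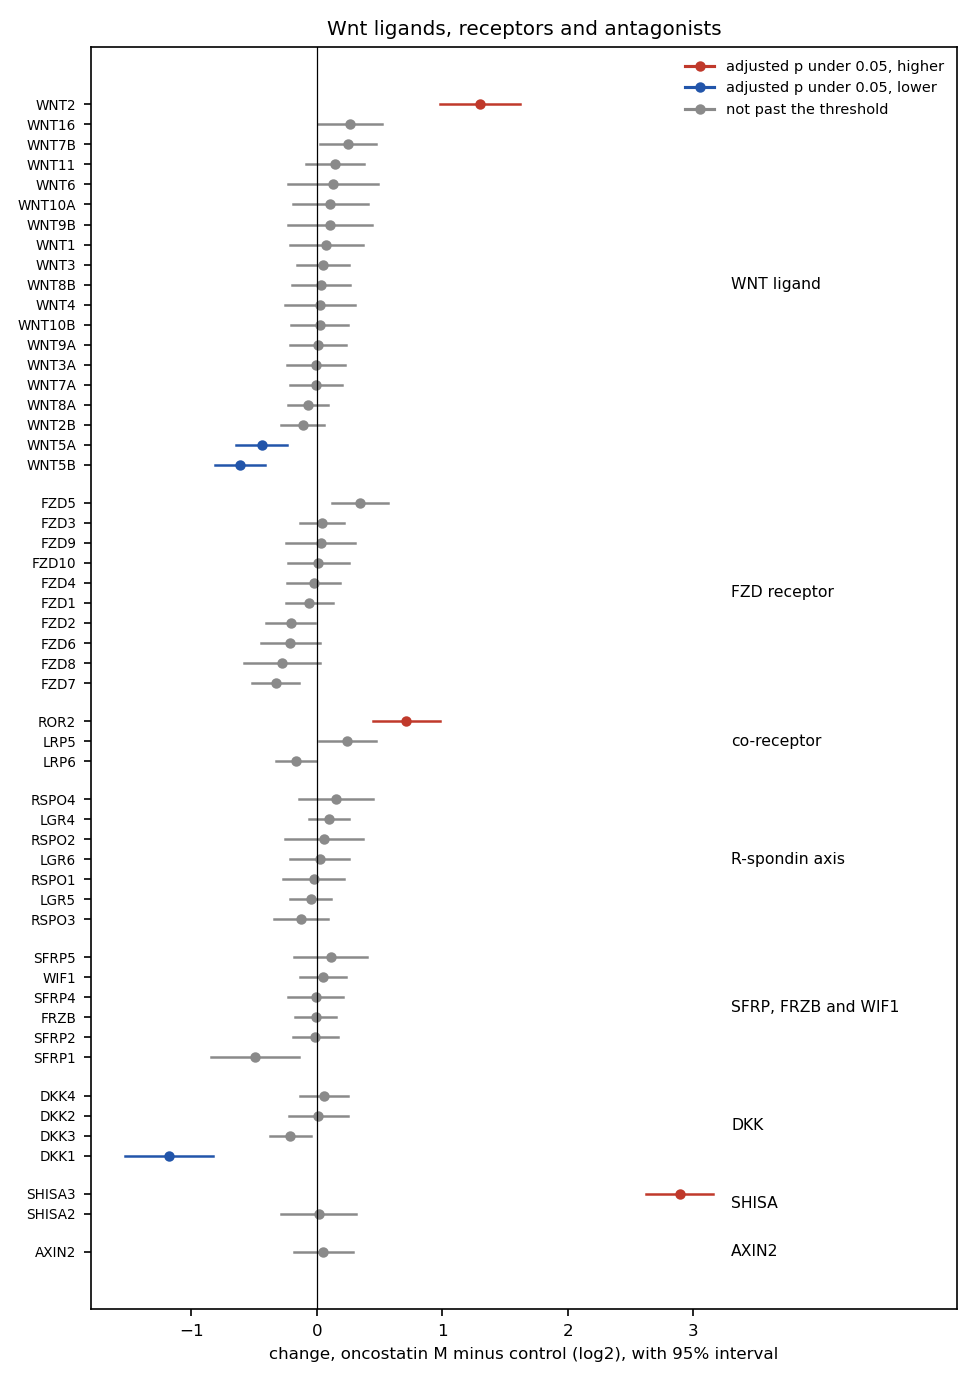
Change of each of the 52 members (oncostatin M minus control, log2; points) with its 95% interval (lines), by role, 3 arrays per group. SHISA3 (2.89), WNT2 (1.30) and ROR2 (0.72) lie to the right and DKK1 (-1.18), WNT5B (-0.61) and WNT5A (-0.44) to the left, and the 46 grey members did not pass the threshold.

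Among the 19 ligands, WNT2 was higher, and the closely related WNT5A and WNT5B were lower. WNT2 (probe set 8142471) was 7.21, 7.26 and 6.79 in oncostatin M arrays 1, 2 and 3, against 5.62, 5.91 and 5.84 in control arrays 1, 2 and 3. Every oncostatin M array was above every control array. WNT2 rose by 1.30 (SE 0.14, adjusted p = 0.00185 with limma), or 2.46-fold (95% interval 1.98 to 3.07), and ranked 36 among all genes by rise. Its control mean of 5.79 lay below the bound for silent genes, at 83.9% of them, while its oncostatin M mean of 7.09 lay above, at 95.6%, so the size of the rise is uncertain. WNT2 passed in all 6 fits without 1 array (adjusted p up to 0.0212).

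WNT5B (probe set 7953012) was 7.76, 7.63 and 7.66 in oncostatin M arrays, against 8.18, 8.43 and 8.27 in control arrays. The groups were well apart, with the highest oncostatin M array below the lowest control array. WNT5B fell by 0.61 (SE 0.09, adjusted p = 0.00715 with limma), which is 1.53-fold lower, and passed in all 6 fits that left out 1 array (adjusted p up to 0.0327). WNT5A (probe set 8088180), the ligand with the highest level on these arrays, was 10.25, 10.38 and 10.24 after oncostatin M, against 10.86, 10.62 and 10.71 in control. Its groups did not overlap either. WNT5A fell by 0.44 (SE 0.09, adjusted p = 0.0335 with limma), which is 1.36-fold lower. This call was the least stable of the 6: it held without oncostatin M 1 (adjusted p = 0.0438) and was lost without oncostatin M 2 (0.0566), oncostatin M 3 (0.12), control 1 (0.152), control 2 (0.0613) or control 3 (0.117).

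The other 16 ligand genes had changes between -0.11 and 0.27, with adjusted p of 0.33 or more (limma). WNT16 had the largest of these, 0.27 (95% interval 0.014 to 0.52), and its control 3 array (8.89) lay above oncostatin M 1 (8.81). WNT7B differed by 0.25 (adjusted p = 0.33), with groups that did not overlap. The 95% intervals of these 16 changes lay between -0.28 and 0.52. Of the 19 ligands 12 lay above the bound for silent genes in both groups, 2 in one group (WNT2 and WNT7B) and 5 in neither. Several of the 12 were barely above it, such as WNT4, WNT7A and WNT9B, at 95.1% of the silent genes in both groups.

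**Figure D2:**
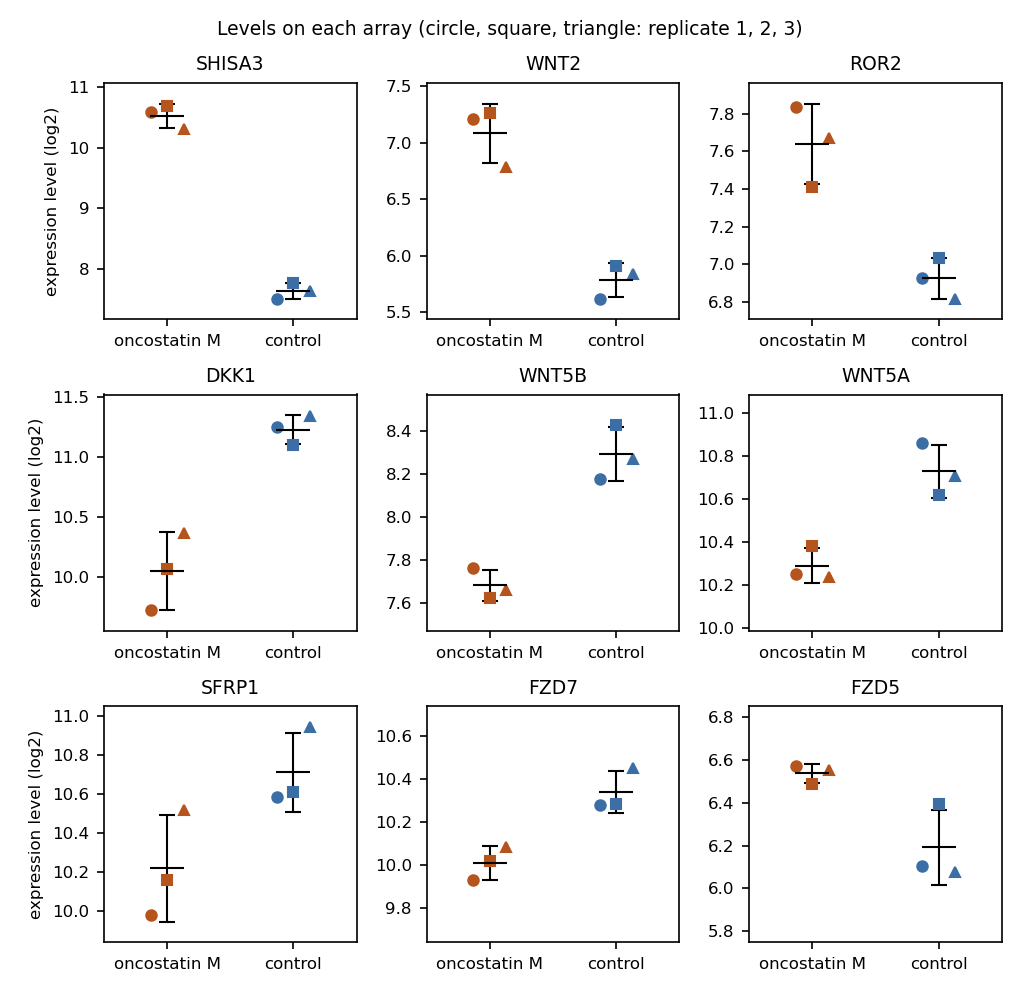
Log2 expression level on each array for the 6 members past the threshold (upper rows) and for SFRP1, FZD7 and FZD5 (bottom row), oncostatin M left and control right; bars give mean ± SD over 3 arrays. In each panel no oncostatin M array lies within the range of the control arrays, and the gap is narrowest for SFRP1 (10.52 against 10.59) and FZD5 (6.49 against 6.39).

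Among the receptors, ROR2 was higher. None of the 10 Frizzled genes passed with limma, and 3 of them had an unadjusted p under 0.05, as had 11.6% of all genes. ROR2 (probe set 8162283) was 7.84, 7.41 and 7.67 in oncostatin M arrays, against 6.93, 7.03 and 6.82 in control arrays. The lowest oncostatin M array was above the highest control array by 0.38. ROR2 rose by 0.72 (SE 0.12, adjusted p = 0.0135 with limma), or 1.64-fold (95% interval 1.36 to 1.97). Its control mean of 6.93 was just above the bound for silent genes. The call was lost without control 1 (adjusted p = 0.0871) or control 3 (0.0618). WNT5A, a ligand known to bind ROR2, was lower on the same arrays.

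FZD7 and FZD5 came nearest to the threshold among Frizzled genes. FZD7 was 9.93, 10.02 and 10.08 in oncostatin M arrays, against 10.28, 10.28 and 10.45 in control arrays, with a change of -0.33 (SE 0.08, adjusted p = 0.0826 with limma). FZD5 was 6.57, 6.49 and 6.55 after oncostatin M, against 6.11, 6.39 and 6.08 in control. Its change was 0.35 (SE 0.10, adjusted p = 0.128 with limma), it passed without control 2 (adjusted p = 0.0498), and both its means lay below the bound for silent genes. The groups of FZD7 and of FZD5 did not overlap. FZD6, the Frizzled gene with the highest mean level, was 10.12, 10.30 and 10.24 in oncostatin M arrays, against 10.48, 10.23 and 10.58 in control arrays, with groups that overlapped (change -0.21, adjusted p = 0.517). The other 7 Frizzled genes (FZD1, FZD2, FZD3, FZD4, FZD8, FZD9 and FZD10) had changes from -0.28 for FZD8 to 0.041 for FZD3.

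The co-receptors of the beta-catenin branch did not pass. LRP6 was 9.47, 9.47 and 9.48 in oncostatin M arrays, against 9.55, 9.67 and 9.68 in control arrays. The groups did not overlap, and the change was small, -0.16 (95% interval -0.32 to -0.0030, adjusted p = 0.415 with limma). LRP5 differed by 0.25 (95% interval 0.019 to 0.47, adjusted p = 0.364), and its oncostatin M 3 array (8.53) lay below control 3 (8.57). Nor did any of the 7 genes of the R-spondin axis pass with limma (changes between -0.12 and 0.15, adjusted p of 0.754 or more). An unadjusted p under 0.05 was found for 0 of the 7 genes, against 11.6% of all genes. Of these, LGR4 had the highest level, with 8.96, 9.05 and 8.98 after oncostatin M against 8.92, 8.85 and 8.93 in control (change 0.10, adjusted p = 0.754). The groups of LGR4 did not overlap and were 0.033 apart. LGR4 and RSPO1 were the members of this axis above the bound for silent genes in both groups, and the other 5 were in neither. RSPO1 was barely above it, at 95.1% of the silent genes in both groups.

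The antagonists held the largest rise and the largest fall of the 52 members. SHISA3 belongs to a family known from frog embryos to hold Frizzled receptors back inside the cell. SHISA3 (probe set 8094870) was 10.59, 10.70 and 10.31 in oncostatin M arrays, against 7.51, 7.78 and 7.63 in control arrays. The lowest oncostatin M array was 2.53 above the highest control array. SHISA3 rose by 2.89 (SE 0.12, adjusted p = 3.33e-05 with limma), or 7.42-fold (95% interval 6.17 to 8.93), the second largest rise among all genes. Its adjusted p was at most 0.00124 in the 6 fits without 1 array. SHISA2, the other SHISA gene among the 52, lay below the bound for silent genes in both groups and differed by 0.015 (95% interval -0.28 to 0.31). Of the SHISA genes outside the 52, SHISA4, SHISA5 and SHISA6 did not pass either (changes -0.11, 0.15 and -0.039).

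DKK1 (probe set 7927631), the secreted inhibitor of LRP5 and LRP6, was 9.72, 10.07 and 10.36 in oncostatin M arrays, against 11.25, 11.10 and 11.34 in control arrays. The SD was 0.32 after oncostatin M and 0.12 in control, and the groups did not overlap. DKK1 fell by 1.18 (SE 0.15, adjusted p = 0.00472 with limma), which is 2.26-fold lower, and ranked 19 among all genes by fall. DKK1 passed in each of the 6 fits without 1 array (adjusted p up to 0.0453, without control 1). DKK3, a related secreted protein, was 12.22, 12.19 and 12.09 after oncostatin M, against 12.39, 12.41 and 12.33 in control, with groups that did not overlap (change -0.21, SE 0.07, adjusted p = 0.231). A second probe set of DKK3 was far dimmer, at 5.57 after oncostatin M and 5.61 in control, and differed by -0.043. DKK2 and DKK4 were below the bound for silent genes in both groups, with changes of 0.013 and 0.059.

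SFRP1 was the highest of the 6 ligand-binding antagonists. It was 9.98, 10.16 and 10.52 in oncostatin M arrays, against 10.59, 10.61 and 10.95 in control arrays. The groups did not overlap, and oncostatin M 3 was 0.065 below control 1. SFRP1 had a change of -0.49 (95% interval -0.84 to -0.14, adjusted p = 0.178 with limma) and did not pass. The other 5 (SFRP2, SFRP4, SFRP5, FRZB and WIF1) had changes between -0.012 and 0.11, and 4 of them lay below the bound for silent genes in both groups, SFRP5 being the exception. AXIN2, the feedback inhibitor and target of beta-catenin signalling, was 6.70, 6.45 and 6.47 in oncostatin M arrays, against 6.39, 6.64 and 6.43 in control arrays. The groups overlapped, and the change was 0.053 (95% interval -0.18 to 0.29, adjusted p = 0.963). Both its means lay below the bound for silent genes, a range where RMA compresses differences.

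**Figure D3:**
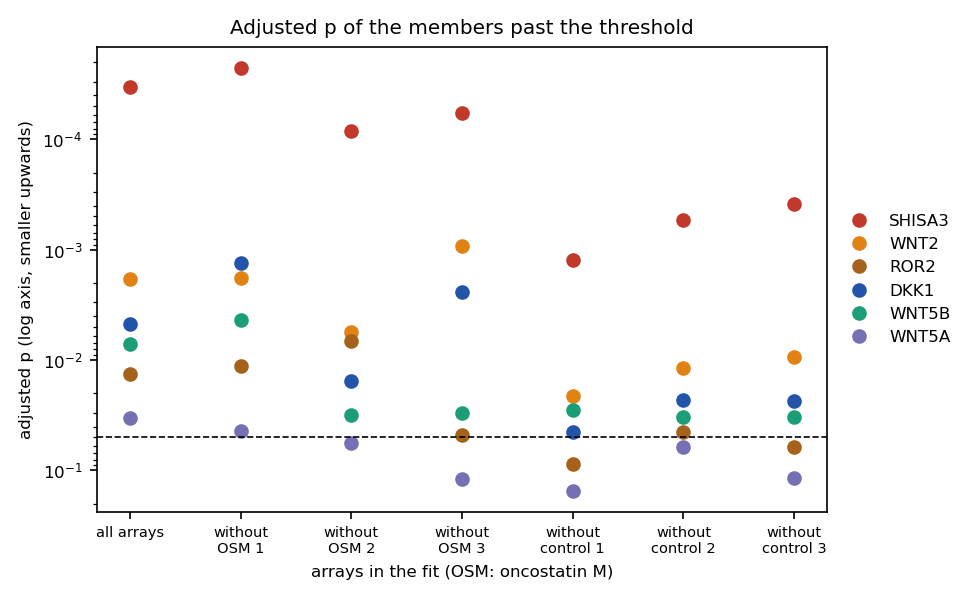
Adjusted p (log axis, smaller values higher) of the 6 members past the threshold with all arrays and with each array left out. SHISA3, WNT2, DKK1 and WNT5B stay past the dashed threshold of 0.05 in each fit shown, ROR2 falls short without control 1 or control 3, and WNT5A passes with all arrays and without oncostatin M 1.

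The promoter windows of the 3 members that passed and changed at least 2-fold (SHISA3, WNT2 and DKK1) are shown because they are the sequences next to the largest changes. Each runs from 250 bases before to 50 bases after the annotated gene start, in RefSeq annotation of GRCh38.p14, 5′ to 3′ along the gene. SHISA3 is at chr4:42397238-42397537 on the + strand, WNT2 at chr7:117323009-117323308 on the - strand and DKK1 at chr10:52314031-52314330 on the + strand. Capitals mark the GC box GGGCGG and the TATA box TATAAA.
SHISA3: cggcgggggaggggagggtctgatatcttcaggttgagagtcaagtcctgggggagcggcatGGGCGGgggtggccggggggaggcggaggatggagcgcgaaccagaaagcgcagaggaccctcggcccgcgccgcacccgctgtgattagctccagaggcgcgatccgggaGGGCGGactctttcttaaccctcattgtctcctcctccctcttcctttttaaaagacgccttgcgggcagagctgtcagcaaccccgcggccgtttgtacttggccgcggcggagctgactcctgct
WNT2: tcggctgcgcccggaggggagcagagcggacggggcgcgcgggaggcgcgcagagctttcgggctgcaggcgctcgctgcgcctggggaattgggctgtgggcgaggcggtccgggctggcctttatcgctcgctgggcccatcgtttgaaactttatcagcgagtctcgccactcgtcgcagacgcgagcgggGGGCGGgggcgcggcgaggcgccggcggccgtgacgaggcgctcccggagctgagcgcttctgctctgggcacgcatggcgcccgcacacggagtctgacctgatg
DKK1: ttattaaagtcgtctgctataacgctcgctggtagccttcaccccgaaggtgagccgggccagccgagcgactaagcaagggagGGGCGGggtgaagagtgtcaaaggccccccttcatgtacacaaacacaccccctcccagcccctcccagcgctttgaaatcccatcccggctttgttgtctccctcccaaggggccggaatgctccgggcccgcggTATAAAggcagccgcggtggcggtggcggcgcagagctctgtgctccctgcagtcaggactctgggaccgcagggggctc

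The share of G and C is 65.3% in SHISA3, 72.7% in WNT2 and 63.7% in DKK1. Over all 35116 windows the median is 58.7% and the quartiles are 47% and 68%, so WNT2 lies above the upper quartile and SHISA3 and DKK1 lie between the quartiles. SHISA3 holds 2 GC boxes, WNT2 and DKK1 hold 1 each, and DKK1 has a TATA box that starts 30 bases before the gene start. Windows were matched for 36 of the 52 members, 41 windows in all since some genes have several. On either strand, the GC box (GGGCGG) was found in 31 of 41 windows and in 45% of all windows, and the TATA box (TATAAA) in 3 of 41 and in 11.5% of all. For STAT factors, TCF and LEF factors and AP-1, 1 form each of the binding sequence was searched (TTCNNNGAA, ATCAAAG and TGANTCA). These forms were found in 0 of the 41 windows, and in 7.66%, 2.62% and 7.71% of all windows. Other forms of these binding sequences were not searched. This says only that these letters are not in these windows.

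Beyond the 52 members, 91 further genes of Wnt signalling were listed by function, and 87 were tested. Of the 87, 7 were higher and 3 lower, which is 11.5% against 3.42% of all genes, and their median change was 0.0041. The lists were chosen with earlier results of these data known, so these shares are no test of the lists. The levels also differ: 66 of the 87 lay above the bound for silent genes in both groups, as did 10799 of all 18417 genes. Of 17 secreted or surface modulators 4 had an unadjusted p under 0.05, and these 4 were higher after adjustment over all genes. SULF1, an enzyme that removes sulfate groups from heparan sulfate and so alters how it holds Wnt proteins, was 11.55, 11.66 and 11.56 in oncostatin M arrays, against 10.03, 10.00 and 9.86 in control arrays. The groups were far apart, and SULF1 rose by 1.63 (SE 0.08, adjusted p = 6.66e-05 with limma). The related SULF2 rose by 0.47 (adjusted p = 0.0353) and the glypican GPC6, a heparan sulfate proteoglycan, by 0.58 (adjusted p = 0.00453). TSPAN12, a partner of FZD4 in Norrin signalling, rose by 0.73 (adjusted p = 0.0179). The control means of SULF2 and TSPAN12 lay below the bound for silent genes, so the sizes of these changes are uncertain.

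Of 7 other receptors KREMEN1, a receptor for DKK1 that helps remove LRP6 from the surface, was higher. It was 9.15, 9.04 and 8.85 in oncostatin M arrays, against 8.14, 8.26 and 8.34 in control arrays, and rose by 0.77 (SE 0.10, adjusted p = 0.00417 with limma). RYK and TPBG, the receptors of that list with the highest levels, differed by -0.17 (adjusted p = 0.567) and -0.093 (0.863). Of the 20 genes of the destruction complex and cytoplasm none passed with limma, against 3.42% of all genes. An unadjusted p under 0.05 was found for 1 of the 20, against 11.6% of all genes. CTNNB1, which encodes beta-catenin, differed by -0.016 (adjusted p = 0.988) and the kinase CSNK1D by 0.012 (0.988). Neither ZNRF3 nor RNF43, the ubiquitin ligases that remove Frizzled receptors, passed (changes 0.010 and 0.042), nor did WLS, which carries Wnt proteins to the surface (change -0.12, adjusted p = 0.637). None of 9 planar polarity genes passed with limma, among them PRICKLE2 (0.021) and CELSR2 (0.068). The 2 of the 9 with an unadjusted p under 0.05 (against 11.6% of all genes), named here after their values were seen, were DAAM1 (-0.31, adjusted p = 0.274) and DAAM2 (-0.25, adjusted p = 0.217), whose groups did not overlap.

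In the nucleus, LEF1, a DNA-binding partner of beta-catenin, rose by 0.46 (adjusted p = 0.0344 with limma). Its control mean of 6.87 was just above the bound for silent genes. TLE4, a co-repressor of TCF and LEF factors, fell by 0.60 (adjusted p = 0.0145). The 9 other genes of that list, BCL9L and TLE1 among them (-0.016 and 0.052), did not pass. Of 14 genes known as targets in various cells, the transcription factor TWIST1 rose by 0.49 (adjusted p = 0.0136) and CCND1, which encodes cyclin D1, fell by 0.48 (adjusted p = 0.0138). CD44 differed by 0.019 (adjusted p = 0.982) and SNAI2 by -0.23 (0.352). In the calcium branch NFATC2 fell by 0.49 (adjusted p = 0.0135), and CAMK2D and PRKCA differed by -0.16 (0.826) and -0.27 (0.278), out of 6 genes. An unadjusted p under 0.05 with limma was found for 4 of the 11 nuclear genes, 6 of the 14 targets and 3 of the 6 calcium genes. The share over all genes was 11.6%. SULF1, KREMEN1 and GPC6 passed in all 6 fits without 1 array, while the other 7 called genes lost theirs in 3 or 4 of 6 fits, each of them without control 1 among others (adjusted p up to 0.174, for LEF1). Without control 1, SULF1, KREMEN1 and GPC6 were the 3 genes of the 87 that passed.

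**Figure D4:**
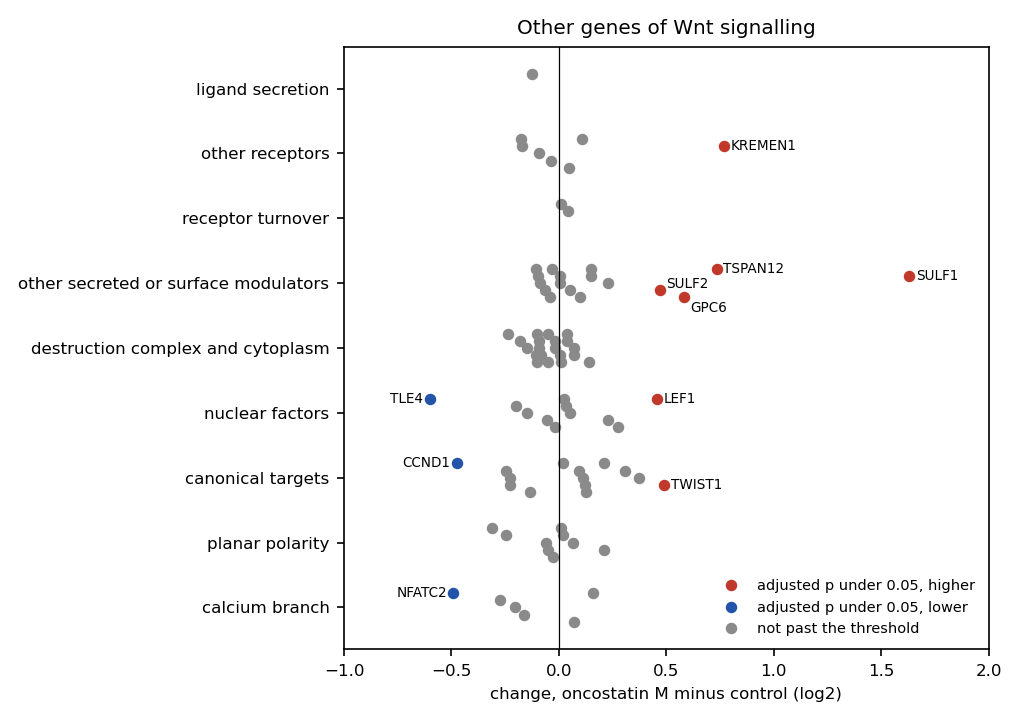
Change (oncostatin M minus control, log2) of the 87 further Wnt genes by list, 1 point per gene. The 10 genes past the threshold are named, SULF1 (1.63) and KREMEN1 (0.77) lie farthest to the right and TLE4 (-0.60) farthest to the left, and the destruction complex holds none.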

How the data were processed

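RNA levels were measured in 6 arrays of IMR90 cells, 3 after oncostatin M and 3 untreated, grouped and numbered by their titles. The deposited values are log2 expression levels for 33297 probe sets, which the authors computed by RMA. The submitters' processing notes name Affymetrix Expression Console 1.1 and no settings. RMA subtracts background, equalises the distributions of the arrays and combines probes, and small signals come out with reduced differences. The sources used here name no build for the arrays.

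A platform gene table gave 1 symbol for 19460 probe sets, several for 1754 and none for 12083. Each gene was represented by its probe set of highest mean level, with no filter on dim genes. All 18417 genes were fitted with limma 3.58.1 in R 4.3.3, with the group as the only term, two-sided p and Benjamini-Hochberg adjustment over all genes. The model was tested on simulated data. The members and lists were chosen with earlier results of these data known. Values on every array are given for members past the threshold, for members whose groups do not overlap with a change of at least 0.3, and for the highest member of each role. Alternatives were other normalizations and probe sets, array weights, another variance prior, a replicate block, filters on low levels, stricter thresholds and fits without 1 array. Promoter windows are from RefSeq (GRCh38.p14). Figures were drawn with matplotlib 3.10.9.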

Additional observations from a re-analysis of the deposited data

How the results depend on the processing

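With all arrays, 3 members were higher and 3 lower, of 52. The 14 members given by array kept their side of the threshold in 199 of 218 refits, with 19 changes of side and 0 called values reversed. This total is no measure of stability, since it counts members far from the threshold. It also counts changes of probe set, which can barely move members with 1 probe set, and DKK3 alone of the 14 has more. WNT5A passed in 1 of 6 fits without 1 array and in 8 of 10 other refits. For ROR2 these were 4 of 6 and 8 of 9. AXIN2, not called, turned to -0.028 without oncostatin M 1. With array weights 5 members were higher and 5 lower, with a trended and robust variance prior 5 were lower, among genes above the median level 1 was higher (WNT2 and ROR2 were not tested there), and with a change of at least 2-fold 1 was lower. Leaving out each array in turn gave 2 to 4 members higher and 2 to 3 lower, 156 to 400 genes higher and 105 to 332 lower, and 3 to 7 of the further Wnt genes higher and 0 to 3 lower. With array weights 667 genes were higher and 610 lower, and 5 further genes were lower, as with the trended prior. At an adjusted p under 0.01, 175 genes were higher and 112 lower, with 3 and 0 further genes. At 2-fold or more, 70 genes were higher and 34 lower, with 1 and 0 further genes. The cause of these shifts was not tested, apart from the stricter thresholds, which can only remove calls. Deviations of arrays with the same replicate number correlated at 0.064, -0.46 and 0.51. With 3 arrays per group, these values cannot decide whether the numbers mark pairs. The labels state no pairing, so the numbers were not taken as pairs. With the replicate block, 2 members were higher (SHISA3 and WNT2) and 3 lower (DKK1, WNT5B and SFRP1, the last at an adjusted p of 0.0397), and ROR2 (0.0504), WNT5A (0.102) and, of the further genes, TSPAN12 (0.0644) and TLE4 (0.0517) did not pass. WNT5A also missed the threshold when arrays were centred on their medians (0.0541). FZD7 passed under 4 alternatives (adjusted p from 0.027), and DKK3 under 2. With array weights in limma, FZD5 (adjusted p = 0.0149) and WNT16 passed too. Low signal limits what can be said of the 21 members below the bound for silent genes in both groups.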
